A study of Ovis aries with 32 samples.

Results

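The cytoskeletal genes described here, each read by 1 microarray probe in the lamb heart, are TMOD3 (probe A_70_P039771), MYL6B (probe A_70_P018086) and TUBB3 (probe A_70_P018966). They are 3 of the 15008 probes of the array. They were chosen by the measured log2 difference and its unadjusted p, since their signals differed between the lambs of cortisol-treated and of untreated ewes in a first analysis of these same arrays, in both tissues for TMOD3 and MYL6B and in the left ventricle for TUBB3. Differences in those tissues are therefore given as descriptions with no test. Tests were kept for values other than those that made the choice: TUBB3 in the septum, the levels in the septum against the ventricle, and the way single lambs of a group departed from their group mean. The septum test of TUBB3 is not independent of the choice, since both tissues come from largely the same lambs.

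The arrays held heart RNA of sheep (Ovis aries) lambs aged 14 days. CORT lambs were born to ewes infused overnight with cortisol at 0.5 mg/kg/day from day 115 of gestation until delivery, and Control lambs to ewes left untreated (0 mg/kg/day). RNA came from the left ventricular free wall (LV) and the interventricular septum (IVS), with 8 Control and 8 CORT lambs in each tissue, 32 arrays in all. The study took both tissues from the dissected hearts of 8 lambs a group. Its Control ewes delivered 8 lambs in all, so every Control lamb is in both tissues. The CORT ewes delivered few more than 8, so most CORT lambs are too. The tissues are therefore not separate sets of animals. Twins were born in both groups of ewes, and since all Control lambs were used, a twin pair is among them. The labels do not say which lambs shared a mother, so such lambs are not accounted for in the errors. Both tissues are mixtures of muscle, vessel, connective tissue and blood cells, and in such bulk samples fewer cells of a type and less RNA per cell cannot be told apart. The tissue label could not be checked against heart muscle genes, because 0 of the 12 cardiomyocyte markers listed for this purpose is named on the array by the files or the reference table.

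The arrays lay on 5 slides, and every slide held lambs of both treatments but of 1 tissue. LV arrays filled slides 1 and 2, each with 4 Control and 4 CORT lambs. IVS arrays lay on slide 3 (2 Control, 2 CORT), slide 4 (3 Control, 2 CORT) and slide 5 (3 Control, 4 CORT). Slides 1, 2 and 5 were scanned on the same day, and slides 3 and 4 on 2 other days. The median spot intensity of an array ran from 131 to 332, and 59.7% to 80.4% of its spots were well above background. The number of lambs, not a count of reads, limits the precision of array values. Values are log2 intensities after background correction and normalization within a tissue, so that a difference of 1 is a doubling.

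Tropomodulins cap the slowly growing, pointed end of actin filaments and so help to set filament length. TMOD3 is the widely expressed member of this family, while striated muscle is best known for TMOD1. MYL6B encodes a myosin light chain of the essential type that is found in non-muscle and slow muscle tissue. Its relative MYL6 is the light chain of smooth muscle and non-muscle myosin. TUBB3 encodes class III beta-tubulin, a subunit of microtubules best known from neurons, and the beta-tubulin genes are closely alike in their coding sequence. The name is used here for the probe, but the naming left 3 candidate probes. In the study's list of LV genes TUBB2B has the same fold change as TUBB3 and nearly the same p. The naming may therefore not tell these genes apart. Which beta-tubulin gene the probe reads is therefore not settled.

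None of the 3 symbols stands in the deposited annotation, which lists the TMOD3 probe as an unknown sequence cluster and the others by expressed sequence tags. The probe sequences are shown because they tell which stretch of a transcript each signal reads. Of the first probe the first 30 bases are given, with stop triplets in capitals. Of the second, bases 21 to 50 are given, with the letters AATAAA in capitals. The third is given whole.
TMOD3 probe, bases 1 to 30: tcTGAgTAGgaaagctattttcttccctgt
MYL6B probe, bases 21 to 50: aggctattgtttcaaAATAAAgagacgttt
TUBB3 probe, bases 1 to 60: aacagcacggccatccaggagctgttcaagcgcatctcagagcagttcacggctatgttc

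The TMOD3 probe, with 36.7% G and C, held stop triplets in each of the 3 forward reading frames. The MYL6B probe, with 43.3% G and C, held the hexamer AATAAA, the usual polyadenylation signal, which was searched on the given strand and occurs in 5.63% of all 15008 probes. The TUBB3 probe, with 55.0% G and C, held no stop triplet in any forward frame. These are descriptions of letters and do not settle which gene a probe reads. No other probe of the array shared a run of more than 14 bases with any of the 3. In the reference gene table for the Rambouillet sheep assembly ARS-UI_Ramb_v3.0, MYL6B lies next to MYL6 and TMOD3 next to TMOD2, and TUBB3 stands there only as another name of MC1R. No genome of the array's design was used here, so chromosome positions of the probes are not given.

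Each of the 3 genes had 1 spot per array, and each spot was well above background on 32 of 32 arrays and saturated on 0. The mean spot intensity ran from 633 to 6170 for TMOD3, from 820 to 3788 for MYL6B and from 15458 to 65312 for TUBB3, against local backgrounds between 29 and 58. The TUBB3 spot was bright enough to be taken from the lower-gain scan and scaled up on 31 of 32 arrays. Its mean level was the 209th highest of the 11518 LV probes tested and the 232nd highest of the 11685 IVS probes. The TMOD3 and MYL6B spots were read from the ordinary scan on all 32 arrays.

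**Figure D1:**
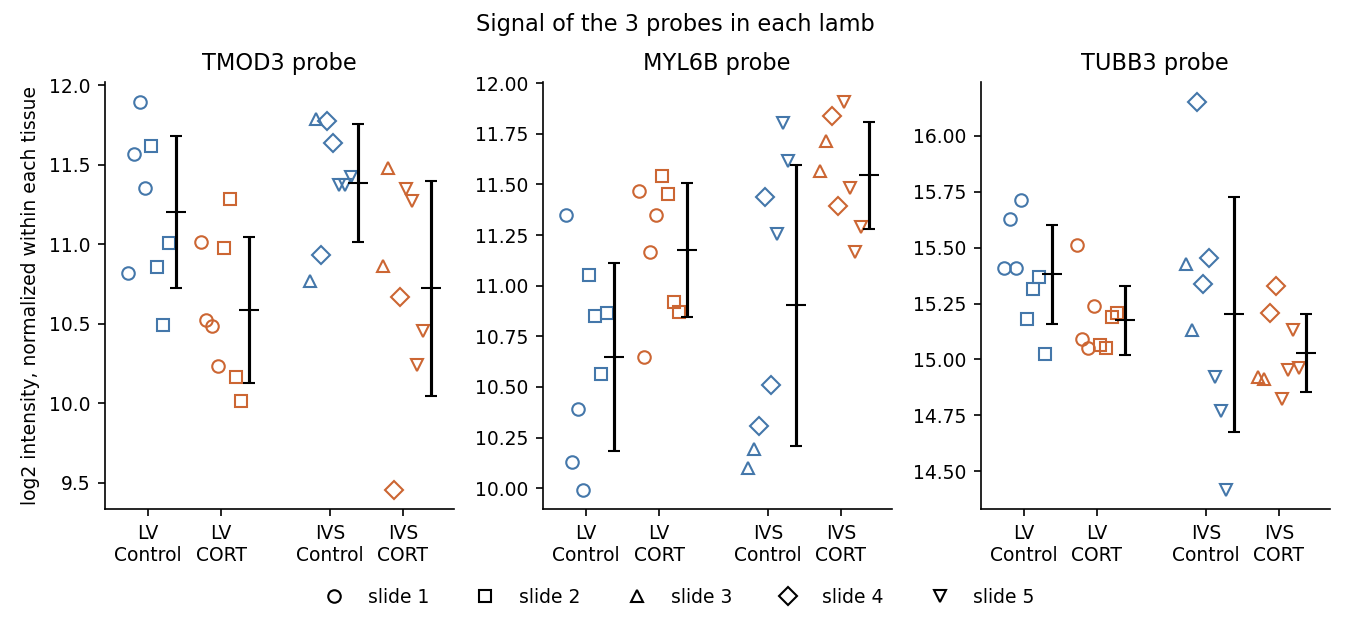
Normalized log2 intensity of the TMOD3, MYL6B and TUBB3 probes in each lamb, by tissue and treatment, with the slide as the symbol. Black bars are group means ± SD (n = 8). CORT lambs sit lower for TMOD3 and higher for MYL6B in both tissues, the groups overlap in all 6 comparisons, and the TUBB3 Control lambs of the IVS spread from 14.42 to 16.15.

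TMOD3, the actin filament capping gene, was lower in CORT lambs in both tissues, and this contrast had chosen it. In the LV the Control lambs ran from 10.50 to 11.90 with a median of 11.18, and the CORT lambs from 10.02 to 11.28 with a median of 10.51. Of the CORT lambs, 4 of 8 lay below every Control lamb, and 4 of the 8 Control lambs above every CORT lamb. The means were 11.20 ± 0.48 and 10.59 ± 0.46 (SD, n = 8 each), a log2 difference of -0.61 (SE 0.21) or 1.53-fold. It was the 16th lowest difference of the 11518 LV probes tested.

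In the IVS, TMOD3 ran from 10.77 to 11.79 with a median of 11.40 in Control lambs and from 9.46 to 11.48 with a median of 10.76 in CORT lambs. The means were 11.39 ± 0.37 and 10.72 ± 0.68 (SD, n = 8 each), a log2 difference of -0.66 (SE 0.25). Here too 7 of 8 CORT lambs lay below the Control mean, as in the LV. The difference was again the 16th lowest, of 11685 IVS probes tested. CORT lamb 3, at 9.46, was the lowest of all 16 IVS lambs and lay 0.78 below the next CORT lamb. Without it the IVS difference was -0.48.

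MYL6B, the myosin light chain gene, was higher in CORT lambs in both tissues, again in the contrasts that chose it. In the LV, Control lambs ran from 9.99 to 11.35 with a median of 10.71 and CORT lambs from 10.65 to 11.54 with a median of 11.26. Control lamb 1, at 11.35, was the only Control lamb in the upper part of the CORT range, and the other 7 lay at or below 11.05. The means were 10.65 ± 0.46 and 11.18 ± 0.33 (SD, n = 8 each), a log2 difference of 0.53 (SE 0.18), or 1.44-fold. All 8 CORT lambs lay above the Control mean, and the difference was the 16th highest of 11518.

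In the IVS, MYL6B Control lambs ran from 10.102 to 11.81 and CORT lambs from 11.17 to 11.91, with medians of 10.88 and 11.52. The CORT lambs were close together (11.54 ± 0.26, SD, n = 8), while the Control lambs were spread (10.90 ± 0.70, SD, n = 8). The log2 difference was 0.64 (SE 0.24), or 1.56-fold, the 65th highest of 11685. Of the Control lambs, 4 lay between 10.102 and 10.51, below every CORT lamb, and the other 4 lay between 11.25 and 11.81, within the CORT range.

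TUBB3 showed the smallest differences. In the LV the Control lambs ran from 15.03 to 15.71 with a median of 15.39 and the CORT lambs from 15.05 to 15.51 with a median of 15.14. CORT lamb 1, at 15.51, stood apart from the other 7, which lay at or below 15.24. The means were 15.38 ± 0.22 and 15.18 ± 0.15 (SD, n = 8 each), a log2 difference of -0.21 (SE 0.092), or 1.15-fold. It was the 342nd lowest of 11518 and had been a reason for the choice.

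In the IVS, the tissue that did not choose TUBB3, its level ran from 14.42 to 16.15 in Control and from 14.82 to 15.33 in CORT lambs. The means were 15.20 ± 0.52 and 15.03 ± 0.17 (SD, n = 8 each). The log2 difference was -0.17 (SE 0.18, 95% confidence interval -0.55 to 0.21) and did not pass the test (exact permutation test over all 12870 assignments of the arrays, two-sided, p = 0.418, and limma adjusted p = 0.993). This interval holds the LV value, so the IVS arrays did not separate a difference of that size from none. Below the Control mean lay 6 of 8 CORT lambs. Single Control lambs set the size of the difference: it was -0.035 without Control lamb 3, the highest at 16.15, and -0.28 without Control lamb 8, the lowest at 14.42. The study had not listed TUBB3 in the IVS, and the lambs are largely those of the LV arrays. This test is therefore not independent of the choice.

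As background to these values, 444 of the 11518 LV probes tested (3.85%) had an unadjusted limma p under 0.05, 191 of them higher in CORT lambs (1.66%) and 253 lower (2.20%). In the IVS these were 419 of 11685 (3.59%), 163 higher (1.39%) and 256 lower (2.19%). With Benjamini-Hochberg adjustment over all probes, limma called 0 probes in either tissue. The members' own differences belong to the contrasts that chose them, apart from TUBB3 in the IVS, and nothing is read from their place in these counts.

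Because each slide held both treatments, the difference could be read within slides. TMOD3 was lower in CORT lambs on all 5 slides. The LV differences were -0.85 on slide 1 and -0.38 on slide 2, and the IVS differences were -0.11, -1.39 and -0.56 on slides 3, 4 and 5. The largest of these rested on 2 CORT lambs, of which CORT lamb 3 was one. With slide as a block the IVS difference was -0.70 (SE 0.25). The LV slides are balanced, so a block cannot move the LV values.

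MYL6B was higher in CORT lambs on 4 of 5 slides. In the LV its differences were 0.69 on slide 1 and 0.36 on slide 2. In the IVS they were 1.496 on slide 3 and 0.86 on slide 4, and -0.097 on slide 5. The CORT means hardly moved between the IVS slides, at 11.64, 11.62 and 11.46, while the Control means were 10.15, 10.75 and 11.56. On slide 5, the IVS slide with the most arrays, the difference between the treatments was therefore not seen. The block value over the 3 IVS slides was 0.60 (SE 0.23).

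TUBB3 was lower in CORT lambs on 4 of 5 slides, by -0.32 and -0.095 on LV slides 1 and 2 and by -0.36 and -0.38 on IVS slides 3 and 4. On slide 5 it was higher by 0.26. Its IVS value with slide as a block was -0.093 (SE 0.14). Each of these within-slide values rests on 2 to 4 lambs a side.

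**Figure D2:**
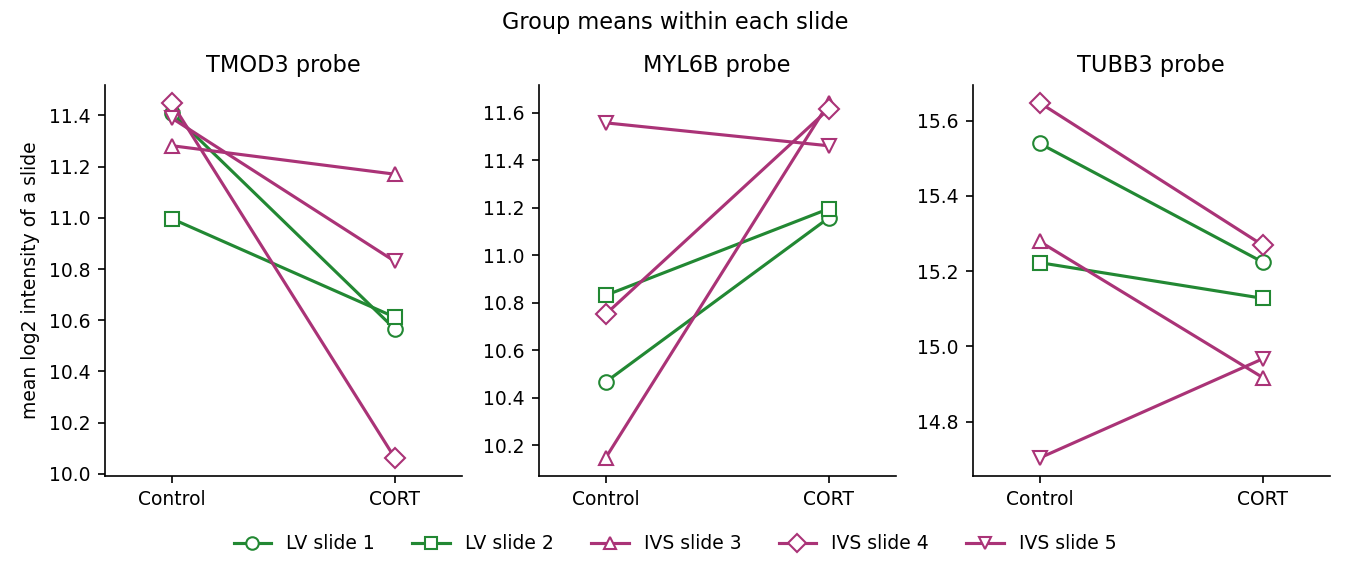
Mean log2 intensity of Control and CORT lambs on each slide, for each probe, with LV slides in green and IVS slides in purple. CORT lambs are lower for TMOD3 on all 5 slides, higher for MYL6B on all but IVS slide 5 (-0.097), and lower for TUBB3 on all but IVS slide 5 (0.26).

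The size of the differences was set beside other ways of fitting. In the LV, TMOD3 was -0.62 in the deposited matrix and -0.70 with array weights, and MYL6B was 0.52 and 0.55. For MYL6B in the IVS, weighting arrays by quality lowered the difference from 0.64 to 0.42 (SE 0.21), a change of just over 1.5 times. TUBB3 in the LV was -0.17 (SE 0.092) with array weights and -0.22 (SE 0.094) in the deposited matrix.

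**Figure D3:**
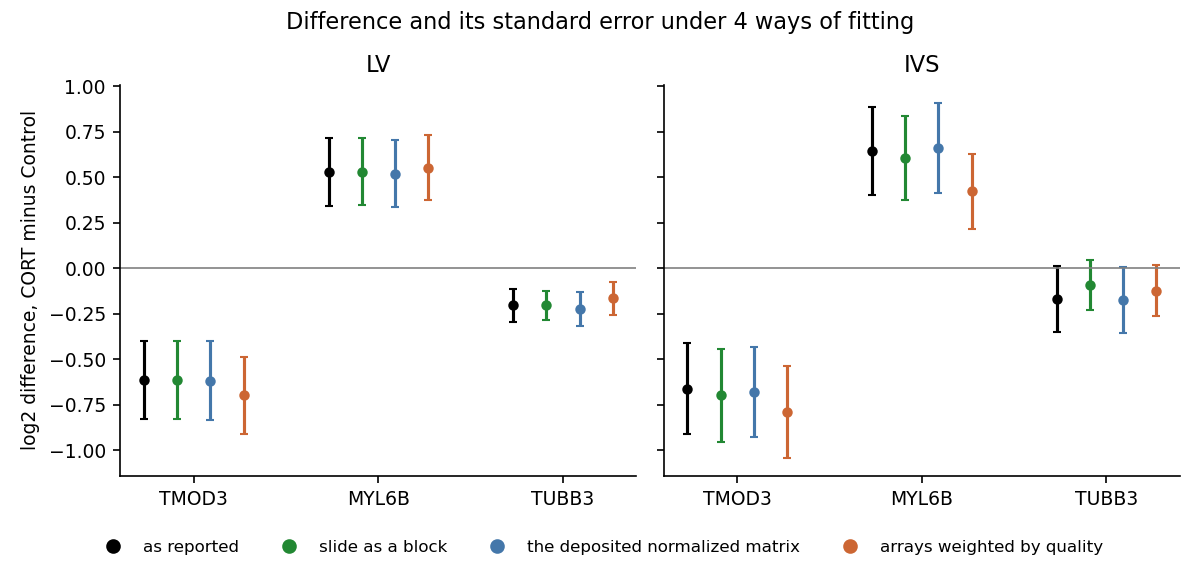
Log2 difference, CORT minus Control, of the TMOD3, MYL6B and TUBB3 probes in the LV and IVS, with bars of ± 1 standard error (8 lambs a group), as reported, with slide as a block, in the deposited matrix and with arrays weighted by quality. The direction is the same in all 4 fits, of which the slide block cannot move the LV values, and the TUBB3 bars in the IVS reach past 0.

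To compare the tissues, all 32 arrays were normalized together and the mean of both IVS groups was set against the mean of both LV groups. The fit took the 32 arrays as independent, although both tissues come from largely the same lambs. For TMOD3 the order of the 4 group means was IVS Control (11.32 ± 0.37), LV Control (11.27 ± 0.48), LV CORT (10.66 ± 0.46) and IVS CORT (10.65 ± 0.68; SD, n = 8 each). The tissues of a treatment are thus neighbours that differ by far less than their spread. The IVS minus LV difference was 0.019 (SE 0.17, 95% confidence interval -0.33 to 0.37, limma adjusted p = 0.958).

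For MYL6B the order was IVS CORT (11.48 ± 0.27), LV CORT (11.25 ± 0.33), IVS Control (10.83 ± 0.70) and LV Control (10.72 ± 0.46; SD, n = 8 each), and the neighbours within a treatment again differed by less than their SD. The difference between the tissues was 0.17 (SE 0.16, 95% confidence interval -0.15 to 0.50, limma adjusted p = 0.511), and 0.11 without IVS Control lamb 7. For TUBB3 the order was LV Control (15.35 ± 0.21), IVS Control (15.23 ± 0.54), LV CORT (15.15 ± 0.15) and IVS CORT (15.05 ± 0.18; SD, n = 8 each), with no neighbours further apart than the larger of their SDs. Its tissue difference was -0.11 (SE 0.11, 95% confidence interval -0.33 to 0.11, limma adjusted p = 0.555). It was -0.18 without IVS Control lamb 3 and -0.050 without IVS Control lamb 8. By the same test 1392 of 12344 probes (11.3%) differed between the tissues, 760 higher in the IVS (6.16%) and 632 lower (5.12%). With lamb number within treatment as a random block 1661 probes did, and the members' differences stayed as they were. Their SE was then 0.16 for TMOD3, 0.15 for MYL6B and 0.10 for TUBB3 (limma adjusted p = 0.953, 0.480 and 0.518). That fit supposes that equal numbers mark the same lamb, which was not shown.

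No slide held both tissues, so tissue and slide cannot be told apart in these values. Among the IVS slides the TUBB3 probe moved by more than between the tissues, with means of 15.12 on slide 3, 15.54 on slide 4 and 14.87 on slide 5. The lowest of the 5 lambs of slide 4, at 15.24, lay above the highest of the 7 lambs of slide 5, at 15.16. Restricted to the arrays scanned on the same day (16 LV and 7 IVS arrays), TUBB3 was lower in the IVS by -0.40 (SE 0.083, limma adjusted p = 0.00498). That comparison sets IVS slide 5 alone against LV slides 1 and 2 and was added after the values were seen. There MYL6B was 0.46 higher in the IVS (SE 0.16, limma adjusted p = 0.0859) and TMOD3 differed by 0.073 (SE 0.19, limma adjusted p = 0.868).

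**Figure D4:**
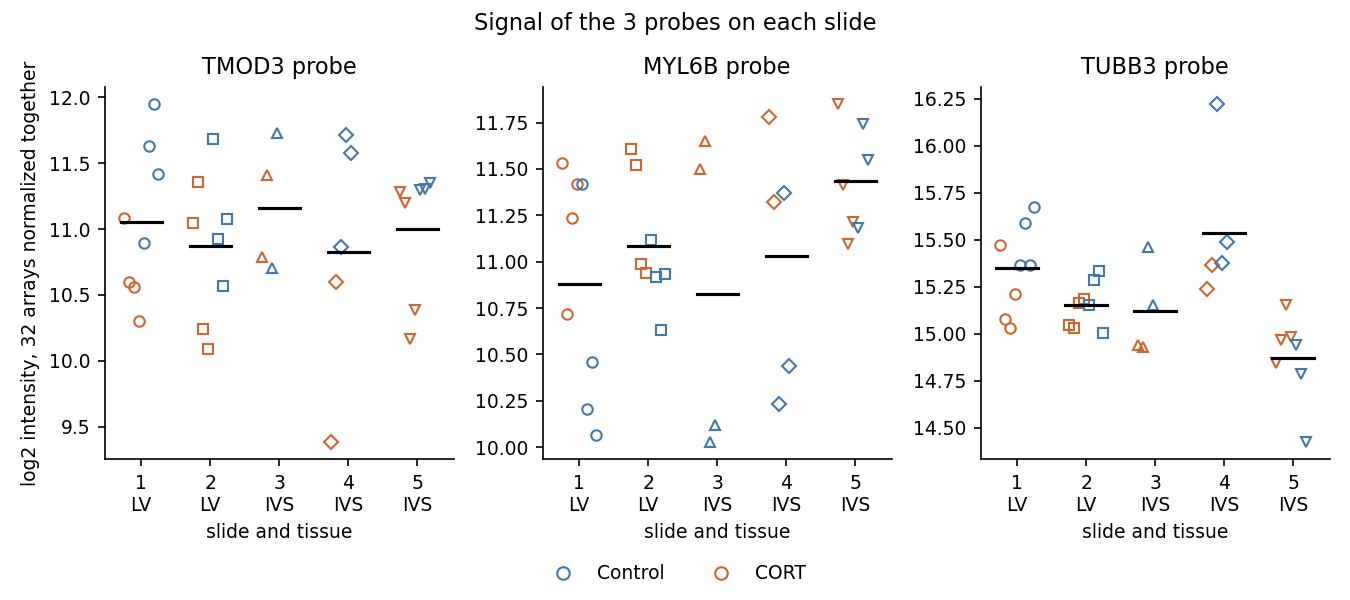
Log2 intensity of each probe on the 5 slides after the 32 arrays were normalized together, in Control and CORT lambs, with the slide mean as a black line. TUBB3 differs between IVS slides 4 and 5 (means 15.54 and 14.87) by more than between the tissues (-0.11), while the TMOD3 slide means stay between 10.83 and 11.16.

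The relations between the genes were read over single lambs, as deviations from the mean of each lamb's own group. The difference between group means thus does not enter, but a difference in spread does. In all, 9 relations were computed, each with a permutation test of 100000 resamples within groups. None passed after Benjamini-Hochberg adjustment over the 9. The closest was MYL6B with TUBB3 in the IVS, where lambs high in one were low in the other (Pearson r = -0.65, permutation p = 0.0341, adjusted p = 0.307, Spearman rho = -0.69, permutation p = 0.0209, n = 16). Without the 2 lambs farthest from the median it was -0.61 (permutation p = 0.0956, n = 14), and as deviations from group and slide means -0.67 (permutation p = 0.0896). With processed signals scaled to their 75th percentile it was only -0.23 (permutation p = 0.482). In the LV the same relation was -0.41 (permutation p = 0.160, adjusted p = 0.360, n = 16). The IVS relation weighs the Control lambs most, since both genes spread more in them. Their SDs were 0.70 for MYL6B and 0.52 for TUBB3, against 0.26 and 0.17 in CORT lambs.

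TMOD3 and MYL6B, which differed in opposite directions between the treatments, had a correlation over lambs of 0.039 in the LV (Spearman rho 0.21, adjusted permutation p = 0.890, n = 16) and 0.20 in the IVS (Spearman rho 0.29, adjusted permutation p = 0.534, n = 16). TMOD3 and TUBB3 gave 0.12 in the LV (Spearman rho -0.093, adjusted permutation p = 0.870, n = 16) and -0.35 in the IVS (Spearman rho -0.46, adjusted permutation p = 0.353, n = 16). Lambs carrying the same number in both tissues were also compared, although the numbers were not shown to pair the arrays over all probes. TMOD3 in the IVS and LV of such lambs had r = 0.39 (Spearman rho 0.52, adjusted permutation p = 0.360, n = 16), MYL6B r = -0.077 (Spearman rho -0.088, adjusted permutation p = 0.890, n = 16) and TUBB3 r = 0.30 (Spearman rho 0.29, adjusted permutation p = 0.534, n = 16). The TUBB3 value ran from -0.058 with slide means removed to 0.68 with cyclic loess (adjusted permutation p = 0.146, Spearman rho 0.36).

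A further 3 probes share a transcript accession with the TUBB3 probe. Whether they read the same transcript was not tested. A high correlation alone does not show it, since RPS6 (r = 0.80) and TCP1 (0.79) also varied with the TUBB3 probe. These were the highest r of 769 named genes over the 32 arrays normalized together. They are not on the same footing as the r within a tissue given below. The files give no gene name to A_70_P036521, and give A_70_P001842 and A_70_P001841 a locus number that the reference table does not hold. A_70_P036521 was as bright, and its LV mean was 15.16 ± 0.22 in Control and 14.96 ± 0.14 in CORT lambs (SD, n = 8 each). Its log2 difference was -0.20 (SE 0.090, limma unadjusted p = 0.0448) in the LV and -0.20 (SE 0.20, limma unadjusted p = 0.329) in the IVS. Its LV difference comes from the same RNA as that of the TUBB3 probe and is not independent support.

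Over the 16 lambs of a tissue A_70_P036521 followed the TUBB3 probe closely, as deviations from group means, with r = 0.97 in the LV and 0.99 in the IVS (Spearman rho 0.94 in both). The permutation p of r was 1e-05 in both tissues, the smallest that 100000 resamples can give, and 2e-05 after adjustment over 6 relations. After removal of slide means the r was 0.95 and 0.98, and without the 2 farthest lambs 0.95 and 0.97. A_70_P001842 gave r = 0.88 in the LV and 0.95 in the IVS, with differences of -0.12 (SE 0.090) and -0.094 (SE 0.14). A_70_P001841, a dim probe, gave r = 0.48 in the LV (adjusted permutation p = 0.0671 over the 6 relations of this kind) and 0.070 in the IVS (adjusted permutation p = 0.792), with differences of -0.024 (SE 0.078) and -0.037 (SE 0.39). For this probe the relation changed with the processing. With processed signals scaled to their 75th percentile it was r = 0.87 in the LV (adjusted permutation p = 1.5e-05) and -0.36 in the IVS (adjusted permutation p = 0.170).

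**Figure D5:**
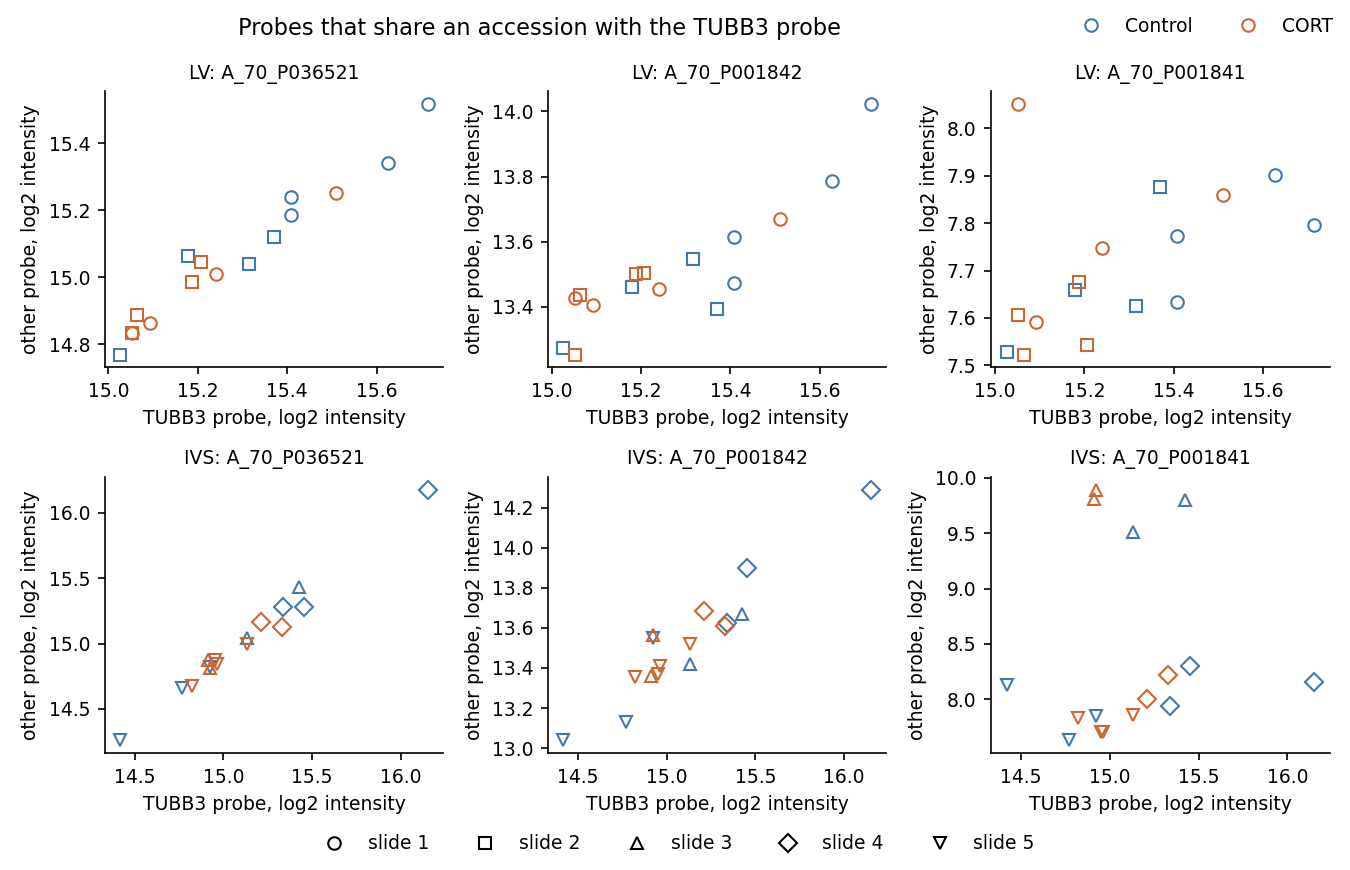
Log2 intensity of 3 probes that share an accession with the TUBB3 probe against that of the TUBB3 probe, 1 point per lamb, in the LV (top) and IVS (bottom), with the slide as the symbol and the treatment as the colour. A_70_P036521 and A_70_P001842 follow the TUBB3 probe, while A_70_P001841 lies apart on IVS slide 3.

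Few relatives of the 3 genes are named on this array by the files or the reference table. The study's list of LV genes also gives the beta-tubulins TUBB2B and TUBB2C as lower in CORT lambs. Their probes were not traced here. MYL6, the light chain gene beside MYL6B, was 15.05 ± 0.17 in Control and 14.92 ± 0.17 in CORT lambs of the LV (SD, n = 8 each), a log2 difference of -0.13 (SE 0.083, limma unadjusted p = 0.141). In the IVS its difference was -0.16 (SE 0.14, limma unadjusted p = 0.282). TUBA4A, an alpha-tubulin gene, differed by 0.073 (SE 0.17) in the LV and 0.16 (SE 0.23) in the IVS. A pair of probes that the files describe as alpha-tubulin, A_70_P024182 and A_70_P024181, differed by -0.11 (SE 0.12) and -0.089 (SE 0.12) in the LV. In the IVS they differed by -0.29 (SE 0.15, limma unadjusted p = 0.0674) and -0.32 (SE 0.14, limma unadjusted p = 0.0387). No probe was named for another tropomodulin or a leiomodin.

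The wider cytoskeleton was read through lists of thin filament and actin regulators, of myosins and of tubulins and microtubule genes, 234 genes in all. Only 12 of these are named on the array by the files or the reference table, and 11 were bright enough to be tested in each tissue. Other cytoskeletal genes that the study's list of LV genes holds, such as MYO18A and ADD1, were not traced to probes and are not counted. In the LV 1 of the 11 had an unadjusted p under 0.05, against 3.85% of all probes, and in the IVS 0 of 11, against 3.59%. The LV gene was CFL1, which encodes the actin-severing protein cofilin, at 7.94 ± 0.20 in Control and 8.19 ± 0.29 in CORT lambs (SD, n = 8 each). Its log2 difference was 0.25 (SE 0.12, limma unadjusted p = 0.0473, adjusted p = 0.999), at a dim probe. Each listed gene was read by its brightest tested probe in a tissue. For CFL1 this was another probe in the IVS (0.038, SE 0.16), whose LV value is not given. The list medians in the LV were -0.035 for the 5 tested genes of the thin filament list, 0.0073 for the 3 of the myosin list and 0.073 for the 3 of the tubulin and microtubule list, beside 0.0015 for all probes. In the IVS they were -0.14, 0.21 and -0.00061, beside -0.0082. Of the 3 genes of the myosin list only MYL6 encodes a myosin chain, and its differences are negative (above). The others were MYLK, a kinase of myosin light chains (0.096, SE 0.23 in the LV and 0.25, SE 0.15 in the IVS), and PPP1R12A, a subunit of myosin phosphatase (0.0073, SE 0.11 and 0.21, SE 0.19).

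Markers of other cells in heart tissue were set beside these values. Of the genes listed as markers, 13 are named on the array, and 12 in the LV and 11 in the IVS were tested. In the LV 2 of 12 passed at an unadjusted limma p under 0.05, against 3.85% of all probes: COL3A1, a fibroblast collagen (-0.28, SE 0.10), and CD14, a monocyte receptor (-0.16, SE 0.071), both lower in CORT lambs. CD14 was dim, with LV means of 7.46 in Control and 7.29 in CORT lambs, and was read by another probe in the IVS. The other genes of these lists did not pass, with COL1A2 at -0.21 (SE 0.11) and DCN at 0.078 (SE 0.11) among the fibroblast markers and CD3E at 0.15 (SE 0.22) among the leukocyte markers. In the IVS 0 of 11 passed, against 3.59%. The erythroid gene HBB varied widely, from 11.43 to 16.23 in the LV and from 9.71 to 15.79 in the IVS. None of the 9 neuronal markers is named here, so a share of nerve tissue in the TUBB3 signal was not tested, nor was the part of any of these cell types in the TMOD3 and MYL6B differences.

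Among 769 named genes, those whose deviations from the group means over the 32 arrays were most like a member's were found. For TMOD3 they were INHA (r = 0.45), CPT1A (0.45) and WT1 (0.44). For MYL6B they were MADCAM1 (r = 0.73), FGF2 (0.68) and SLC16A1 (0.67), and for TUBB3 they were RPS6 (r = 0.80), TCP1 (0.79) and SLC39A7 (0.75). After removal of slide means these were 0.59, 0.47 and 0.54 for TMOD3, 0.61, 0.42 and 0.47 for MYL6B, and 0.73, 0.83 and 0.37 for TUBB3, in the same order. The arrays share slides and normalization, and these values are descriptions.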

How the data were processed

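RNA of 32 samples was hybridized to 1-colour Agilent sheep arrays. The authors deposited the scanner output, with a mean and a local background intensity per spot from Agilent Feature Extraction 10.1.1.1, and a matrix of log2 values per tissue that the authors background-corrected and quantile-normalized with limma. Here spot intensities were corrected by normexp (offset 50), then brought to the same quantiles across the 16 arrays of each tissue, or across all 32 to compare tissues. Probes were kept that exceeded the 95th percentile of the negative controls by 10% on at least 8 arrays. Linear models were fitted to all of them with limma 3.58.1 (R 4.3.3) and p-values adjusted by Benjamini-Hochberg. Correlations used Python 3.11.15 with 100000 resamples. Scripts were tested on simulated data.

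The 3 members, the gene lists and the rule for named genes (the members, relatives of the same family, listed genes passing at an unadjusted p under 0.05, and the 3 most alike genes per member) were chosen with earlier results of these data known. The files or the reference table name 1548 probes. The member names come from the study's gene lists, traced by fold change and by a p within 3%. This left 1 probe for TMOD3 and for MYL6B in each tissue but 3 for TUBB3, so which beta-tubulin that probe reads is not settled. Alternatives were background correction, scaling, brightness limit, slide or replicate blocks, array weights, the deposited matrix and leaving out arrays.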

Additional observations from a re-analysis of the deposited data

Results flagged for a closer look

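Each end of the 12 sets of 8 lambs (3 probes, 2 tissues, 2 treatments) was compared with its nearest neighbour by Dixon's ratio, which by chance picks out about 1 set in 20. TUBB3 in LV CORT lamb 1, at 15.51, stood 0.27 above the next CORT lamb, a gap of 0.591 of the group's range, above the critical value for 8 samples. On the same array the TUBB3-related probe A_70_P036521 was also the highest of the LV CORT lambs, at 15.25.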

How the results depend on the processing

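The TMOD3 and MYL6B differences between treatments kept their direction in both tissues, and TUBB3 in the LV, with each array left out and under all of the alternatives that can move the value (8 of 12 in the LV, 9 of 12 in the IVS). These differences were chosen for their size on these same arrays, so a kept direction is no independent support. TUBB3 in the IVS was 0.035 with processed signals over their 75th percentile, and -0.28 to -0.035 with arrays left out. Probes at an unadjusted p under 0.05 were 725 in the LV with array weights, and in the IVS 879 with slide as a block, 639 with the replicate number as a replicate block and 228 (without Control lamb 3) to 852 (without Control lamb 8) with arrays left out. Same-numbered LV and IVS arrays correlated over 0.1 in 2 of 8 Control and 4 of 8 CORT pairs. Their median r was 0.0041 and 0.18, against -0.034 and -0.052 for other numbers, and the same number matched best in 2 and 4 of 8. Same-numbered Control and CORT arrays, which are different lambs, correlated over 0.1 in 4 of 8 pairs in the LV and 6 of 8 in the IVS. The pairing was therefore not taken as shown. Same-numbered Control and CORT arrays lay on the same slide for 8 of 8 numbers in the LV and 7 of 8 in the IVS. Each number being balanced, the replicate block left the differences as they were, and the SE of TMOD3 in the IVS went from 0.25 to 0.18. That of MYL6B in the IVS rose from 0.24 to 0.28 (95% confidence interval 0.029 to 1.26), while the members' other SEs fell. The TMOD3 tissue difference, near 0, was -0.0011 with array weights and -0.035 to 0.11 with arrays left out. The tissue difference was 0.11 to 0.23 for MYL6B and -0.18 to -0.050 for TUBB3 with arrays left out. The TUBB3 tissue difference was -0.34 (adjusted p = 0.0122) with processed signals and -0.40 on same-day arrays. Signs also turned for TMOD3 and TUBB3 in the LV with slide means removed (r = -0.12), for MYL6B between tissues with processed signals (0.072) or without the 2 farthest lambs (0.34), for TUBB3 between tissues with processed signals (-0.035) or slide means removed (-0.058), and for TUBB3 and A_70_P001841 in the IVS with processed signals (-0.36). The causes were not tested. The deposited matrix, normalized per tissue, was not used between tissues. With 2 to 4 lambs a side, within-slide values have little precision.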

Other observations

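The dim TUBB3-related probe A_70_P001841 lay between 9.51 and 9.89 in the 4 lambs of IVS slide 3, of both treatments, and between 7.63 and 8.30 in the 12 lambs of IVS slides 4 and 5. A_70_P036521 and A_70_P001842 showed no such step on slide 3, where they lay within the range of the other IVS lambs.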
